A study of Lactuca sativa with 53 samples.

Results

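Lettuce (Lactuca sativa) plants of the cultivar UC96US23 were compared after 7 d and after 24 h at 4 °C. Both groups were in the cold, and no library of warm-grown plants entered the test. The comparison used 6 of the 53 RNA sequencing libraries of the series, 3 for each time. The plants had grown in soil at 20 °C, with 16 h of light a day at 350 to 400 μmol per square metre and second, and were 18 days old when the cold began. By the study's methods the light during the cold was dimmer than during growth, at both times. Plants sampled after 7 d were older than those sampled after 24 h, so time in the cold and plant age cannot be told apart. The tissue is named aerial tissue in the labels and leaf in the methods, and it could not be checked against marker genes because the gene identifiers come without names. The labels do not say whether the libraries of a group came from separate plants, so p-values measure the spread between these samples, which may be technical.

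Values are CPM, the reads of a gene per 1000000 reads counted in its library. All genes that reached 0.5 CPM in 2 or more of the 6 libraries were members of the comparison, which kept 21450 of the 23933 genes listed. Names were available for the AP2/ERF family of the study's gene list. Of its 224 genes, 142 were listed under their identifiers in the cold data and 122 passed the limit. The 20 listed genes that did not pass had at most between 0 and 27 reads in any of the 6 libraries, and 2 of them had 0 reads in all 6. The other 82 family genes were not analysed here. A call required a limma adjusted p (Benjamini-Hochberg over all 21450 genes) of 0.01 or less and a size of change of at least 1 on the scale of log2(CPM + 0.5), on which the changes of low genes are understated. "Rose" and "fell" are used for genes that passed both limits, and every change is 7 d minus 24 h.

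AP2/ERF proteins are plant transcription factors that share the AP2 DNA-binding domain. They are grouped into the AP2 subfamily, best known for flower and meristem development, the DREB subfamily (groups I to IV), the ERF subfamily (groups V to X and VI-L), the small RAV subfamily, whose proteins carry a second kind of DNA-binding domain, and the Soloists. In Arabidopsis, the CBF proteins of group III are made soon after the onset of cold and switch on a set of cold-responsive genes. Plants kept at low, non-freezing temperature for days become more tolerant of freezing, which is called cold acclimation. In Arabidopsis the CBF transcripts themselves rise within hours and then decline.

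Between 17930244 and 21855825 reads were counted in the 24 h libraries (median 20782074) and between 19092896 and 27896716 in the 7 d libraries (median 20718724), so that a single read was worth 0.0358 to 0.0558 CPM. The 10 most abundant genes took between 7.11% and 8.07% of the reads at 24 h and between 5.64% and 6.17% at 7 d. Across genes, log2 values of the 24 h libraries correlated at r = 0.991 to 0.993. At 7 d, replicates 2 and 3 correlated at r = 0.993 and replicate 1 with each of them at 0.986 and 0.987. Replicate 1 of 7 d therefore stood somewhat apart, and calls of named genes that change without it are given with that value.

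Between 24 h and 7 d in the cold, 471 of the 21450 genes rose (2.2%) and 705 fell (3.29%), or 5.48% in either direction. The falls went much further than the rises. Called falls had a median change of -1.37 and reached -6.55, whereas called rises had a median of 1.15 and reached 2.77. Changes of 2 or more on the log2 scale were made by 116 of the genes that fell and by 10 of those that rose, and all 26 changes of 3 or more were falls. In 470 of the 471 rises and 702 of the 705 falls, the 3 libraries of one time did not overlap with the 3 of the other. That background was high: over all genes tested, the 7 d libraries lay above the 24 h libraries in 38.9% and below them in 17.5%.

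The genes that fell held a sizeable part of the transcriptome at 24 h. Together they took 8.90% ± 0.235 of all reads at 24 h and 3.13% ± 0.174 at 7 d (SD, n = 3). Genes that rose took 0.833% ± 0.0386 at 24 h and 1.95% ± 0.0454 at 7 d. These sums are over genes chosen by the same contrast and are a description. Falls were also the more frequent call among abundant genes. Of the 1783 genes with a mean of 100 CPM or more, 86 fell (4.82%) and 20 rose (1.12%), while of the 4758 genes between 1 and 5 CPM, 171 fell (3.59%) and 156 rose (3.28%). Few calls came from genes without reads at one time. Of the 187 genes tested that did not reach 0.5 CPM in any 7 d library, 36 fell, and 8 of these falls had 3 reads or fewer in each. Of the 255 that did not reach 0.5 CPM in any 24 h library, 22 rose, and 0 of these were at 3 reads or fewer in each. The 187 passed the filter only through 24 h and the 255 only through 7 d. A call could therefore only be a fall in the 187 and only a rise in the 255.

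The split between rises and falls depended on the scaling of the libraries. The median change of all genes was 0.16, with quartiles of -0.15 and 0.43, so a gene in the middle of the distribution stood slightly higher at 7 d. Centring each library on the median of its well-expressed genes lowered the median change by 0.11, and with it 274 genes rose (1.28%) and 881 fell (4.11%). With edgeR, 351 rose (1.64%) and 1077 fell (5.02%), and with DESeq2 334 rose (1.56%) and 1102 fell (5.14%). Rises were thus 40.1% of the calls with the deposited CPM, 23.7% after centring, 24.6% with edgeR and 23.3% with DESeq2. Both tools rescale the libraries, and the median change of all genes was 0.01 with each. Falls were in the majority under each of these scalings. An adjusted p of 0.01 or less at any size of change was reached by 4766 higher genes (22.2%) and 2197 lower genes (10.2%) with the deposited CPM.

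**Figure D1:**
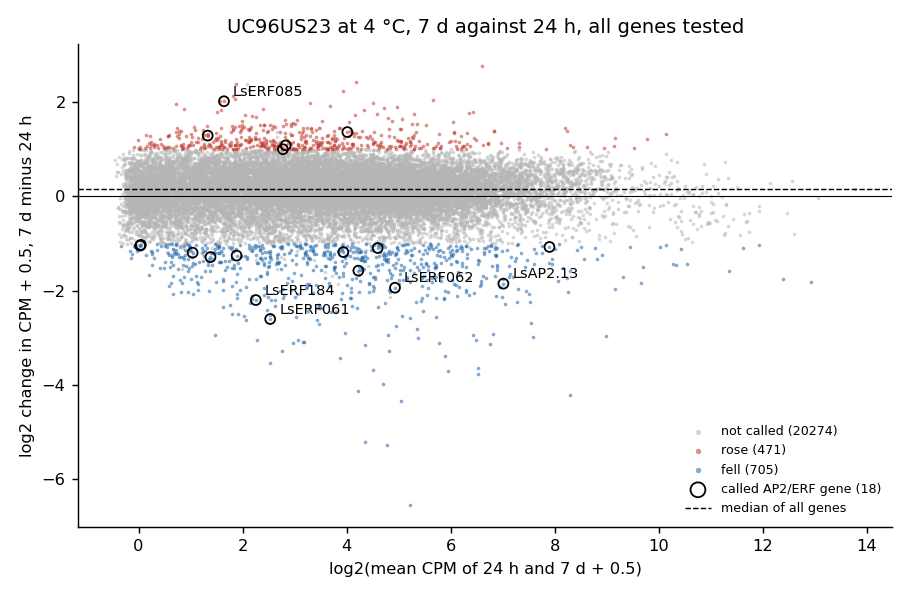
Change in each gene between 24 h and 7 d at 4 °C in UC96US23 (vertical axis, log2 of CPM + 0.5) against its mean level (horizontal axis, log2), for the 21450 genes tested. The points that fell reach down to -6.55 while those that rose end at 2.77, the dashed line marks the median change of 0.16, and open circles mark the 18 called AP2/ERF genes.

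The most extreme genes have no name in the files and are given by their identifiers. Lsat_1_v5_gn_4_132740.2, on linkage group 4, stood at 82.1, 62.8 and 74.4 CPM in the 24 h libraries and at 0.193, 0.629 and 0.108 CPM at 7 d, the last being 4, 12 and 3 reads. It fell by 6.55 on the log2 scale (SE 0.21, limma adjusted p = 2.71e-09). Its mean at 7 d was 0.31 CPM, against 0.0959 CPM in warm-grown plants at 0 h, both near the limit of detection. Lsat_1_v5_gn_3_3061.1, on linkage group 3, stood at 44.3, 61.2 and 52.4 CPM at 24 h and at 1.83, 0.995 and 0.215 CPM at 7 d, a change of -5.28 (SE 0.32, limma adjusted p = 2.98e-07). Its 7 d libraries were far below the 24 h libraries but differed among themselves, with replicate 1 the highest. Both genes fell in the other cultivar of the cold experiment, PI284702, as well, with changes of -5.89 and -4.56. There, Lsat_1_v5_gn_4_132740.2 had a mean of 3.02 CPM at 7 d, against 0.0942 CPM at 0 h.

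The largest rise was that of Lsat_1_v5_gn_9_101820.2, on linkage group 9, which went from 31.7, 24.3 and 18.6 CPM at 24 h to 156, 176 and 176 CPM at 7 d. The gene rose by 2.77 on the log2 scale (SE 0.15, limma adjusted p = 8.91e-08). It was nearly silent in warm-grown plants (mean 0.0483 CPM at 0 h) and after 4 h of cold (0.271 CPM), so its mean was higher at each later time. Lsat_1_v5_gn_5_40321.4, on linkage group 5, had 6.27, 1.73 and 6.64 CPM at 24 h and 53.1, 26.2 and 11.5 CPM at 7 d and rose by 2.44 (SE 0.50, limma adjusted p = 0.00191). Its groups did not overlap but its libraries were widely spread at both times. The call was lost without the filter on low genes (adjusted p = 0.0488) and with the filter over all 23 libraries (0.0437).

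Calls were spread over the genome. The share of tested genes that rose was between 1.37% and 2.57% on the 9 linkage groups and the unplaced sequence, and the share that fell between 2.28% and 3.80%. Neighbours were taken as the next tested genes in the order of identifiers on a linkage group, which skips genes not tested. Of the 695 placed genes that fell, 118 (17.0%) had a neighbour that also fell. The share of all placed genes with a fallen neighbour was 6.41%. For rises the shares were 7.53% (35 of 465) and 4.36%, and none of these shares was tested. Neighbouring genes can be tandem copies that share reads, so neighbouring calls are not independent of each other.

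In the AP2/ERF family, 5 of the 122 genes tested rose (4.10%, against 2.2% of all genes) and 13 fell (10.7%, against 3.29%). The family's median change was -0.07, below the 0.16 of all genes. The 7 d libraries lay below the 24 h libraries in 37 genes (30.3%, against 17.5% of all genes) and above them in 29 (23.8%, against 38.9%). No set test was run, and these shares are a description. In all 18 called genes the libraries of both times did not overlap, as in 470 of the 471 rises and 702 of the 705 falls over all genes. Of the genes tested, 5 passed the filter only through 24 h and 1 only through 7 d, and 2 of the 13 falls were among the former. The small counts moved with single libraries, as did those of all genes. Without replicate 1 of 24 h, 9 rose and 8 fell, against 558 and 601 of all 21275 genes tested. Without replicate 2 of 24 h, 3 rose and 13 fell, against 429 and 762 of 21364. Without replicate 1 of 7 d, 10 rose and 15 fell, against 581 and 865 of 21293. With the libraries centred, 3 rose and 14 fell, against 274 and 881 of 21450.

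The calls were unevenly spread over the groups of the family. Group III, which holds the CBF genes, had 1 rise and 5 falls among 19 genes tested, and all 6 were LsCBF genes. Of the 12 other genes of group III, 0 were called by limma, edgeR or DESeq2. Their median change was 0.39, and 7 had an unadjusted p under 0.05 by limma, all higher. Of all genes tested, 37.5% were higher and 16.9% lower at that limit. Group V had 1 rise among 6 genes and the highest median of the DREB and ERF groups (0.72). Group IX, with 22 genes tested, had 1 rise and 3 falls and a median of -0.23. The AP2 subfamily had 1 fall among 20 genes, and 14 of the 20 were above 0. Groups II, VI, VII and X had 1 fall each, group II also had 1 rise, and 1 of the 2 Soloists rose. In groups I, IV, VI-L and VIII and in the RAV subfamily, 0 of 28 genes were called by limma. Of these, 15 lower and 2 higher genes had an unadjusted p under 0.05, against the same 16.9% and 37.5% of all genes. The other tools made a few calls here: edgeR called 3 falls (LsERF123, LsERF127 and LsRAV.3) and DESeq2 5, the same 3 with LsERF002 and LsERF005, names that were chosen after their values were seen.

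**Figure D2:**
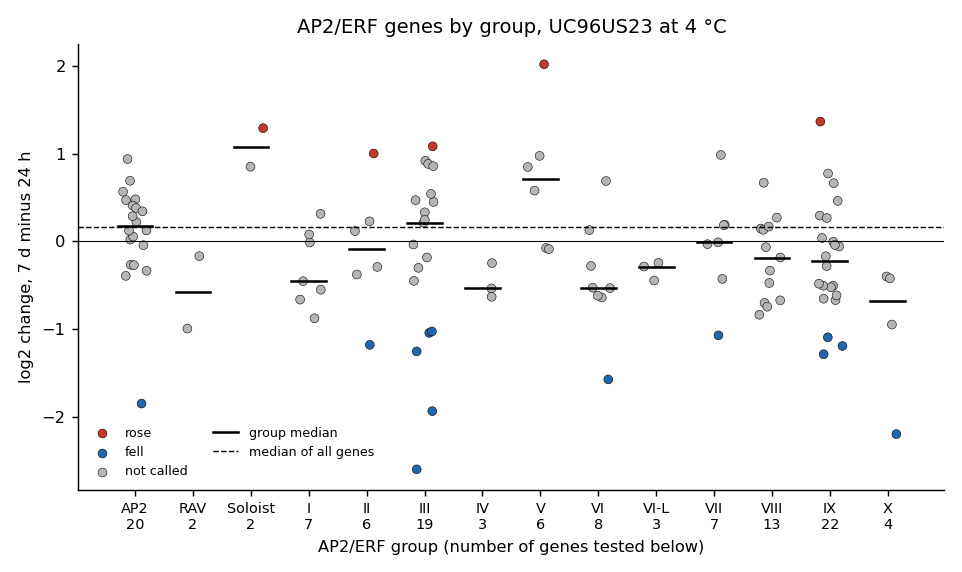
Change between 24 h and 7 d at 4 °C in UC96US23 (vertical axis, log2 of CPM + 0.5) for the 122 AP2/ERF genes tested, by group, with the number of genes tested under each group name. Short bars are group medians and the dashed line is the median of all genes; the 5 falls of group III reach down to -2.60 and the largest rise, in group V, is 2.02.

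Most LsCBF genes tested were lower at 7 d than at 24 h. Of the 14 LsCBF genes, 10 were listed and 7 passed the filter, of which 5 fell, 1 rose and 1 was not called. Over all genes tested, 3.29% fell and 2.2% rose. Among the LsCBF falls, LsERF056 and LsERF059 passed the filter only through 24 h. LsERF062 (LsCBF11; linkage group 9, 63158427 to 63159059 on the minus strand of genome version 8, 1 exon), whose closest Arabidopsis match is CBF4, stood at 52.7, 42.5 and 48.1 CPM at 24 h and at 9.85, 14.5 and 12.2 CPM at 7 d. The groups did not overlap, and it fell by 1.94 (SE 0.13, limma adjusted p = 6.43e-07). LsERF061 (LsCBF12; 63227251 to 63227994, minus strand, 2 exons) went from 8.51, 10.6 and 9.09 CPM to 1.06, 1.52 and 0.86 CPM. Its mean at 24 h was 8.21 times that at 7 d, and it fell by 2.60 (SE 0.19, limma adjusted p = 1.11e-06), the largest fall of the family. Both calls held under all 15 alternative settings.

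LsERF063 (LsCBF10; 63099989 to 63100651, minus strand, 1 exon) stood at 4.80, 4.28 and 5.02 CPM at 24 h and at 1.83, 1.36 and 1.86 CPM at 7 d and fell by 1.26 (SE 0.18, limma adjusted p = 0.00014). Its call was lost with a pseudocount of 2 (change of -0.86). LsERF056 (LsCBF3; 62232796 to 62233491, minus strand) and LsERF059 (LsCBF5; 62497515 to 62498183, minus strand) were near the limit of detection at 7 d. LsERF056 had 23, 11 and 19 reads at 24 h and 2, 2 and 8 reads at 7 d, a change of -1.04 (SE 0.25, limma adjusted p = 0.00517). LsERF059 had 19, 15 and 19 reads and then 6, 2 and 4 reads, a change of -1.03 (SE 0.23, limma adjusted p = 0.00313). The calls of both were weak: that of LsERF056 was lost in 8 of 15 alternatives, with adjusted p = 0.0236 and 0.0272 without replicate 1 or 3 of 24 h and 0.011 and 0.0195 without replicate 1 or 2 of 7 d. That of LsERF059 was lost in 5, with adjusted p = 0.011 and 0.0181 without replicate 1 or 3 of 24 h and 0.0134 and 0.0141 without replicate 2 or 3 of 7 d. The calls of LsERF056 and LsERF059 held with edgeR (changes of -2.46 and -2.43, adjusted p = 0.0036 and 0.00226). They also held with DESeq2 (-2.54 and -2.47, adjusted p = 0.00201 and 0.00172). Both genes passed the filter only through 24 h, so a call for them could only be a fall.

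LsERF064 (LsCBF9; 63083658 to 63084320, minus strand) stood at 1.05, 1.20 and 0.558 CPM at 24 h and at 0.579, 0.681 and 0.358 CPM at 7 d. These values overlapped, and the change of -0.45 was not called (SE 0.25, 95% confidence interval -0.99 to 0.09, limma adjusted p = 0.155). LsERF028 (LsCBF1), LsERF057 (LsCBF4) and LsERF065 (LsCBF8) were listed with at most 5, 1 and 4 reads in any of the 6 libraries and were not tested. LsERF044, LsERF054, LsERF058 and LsERF060 (LsCBF2, LsCBF13, LsCBF6 and LsCBF7) were not analysed here. For LsERF060, the cold data list an identifier that differs in its suffix and was not matched to it. Of these genes, LsERF057 to LsERF065 form the cluster on linkage group 9. The cluster arose by tandem duplication, and how reads shared between copies were counted is not given in the sources used here, so the levels of single copies are uncertain. LsERF058 and LsERF059 share an identifier stem, and whether reads of LsERF058 were counted under LsERF059 was not tested.

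LsERF055 (LsCBF14; linkage group 9, 187031234 to 187031878 on the plus strand, 1 exon), which lies far from the cluster on the same linkage group, went the other way. It stood at 4.85, 3.03 and 4.41 CPM at 24 h and at 8.69, 9.85 and 8.82 CPM at 7 d. The groups did not overlap, and it rose by 1.09 (SE 0.17, limma adjusted p = 0.000318). The adjusted p stayed at 0.00889 or less in every alternative, but the change dropped under 1 with a pseudocount of 2 (0.88), after centring (0.97), with edgeR or DESeq2 (0.99 in each) and without replicate 2 of 24 h (0.91).

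The levels at earlier times give these values a context, as a description. In warm-grown plants at 0 h, LsERF062 had a mean of 3.07 CPM, LsERF061 0.471 CPM and LsERF055 3.04 CPM. After 4 h at 4 °C the means were 111, 25.8 and 9.19 CPM. LsERF062 was thus highest at 4 h, and its 7 d libraries (9.85 to 14.5 CPM) still lay above its 0 h libraries (2.86 to 3.22 CPM). LsERF061 followed the same course, with 0.86 to 1.52 CPM at 7 d against 0.284 to 0.576 CPM at 0 h. LsERF063 was at 0, 0.142 and 0 CPM at 0 h and at 17.4 to 24.2 CPM at 4 h. In LsERF055, the 4 h libraries (8.31 to 9.73 CPM) and the 7 d libraries (8.69 to 9.85 CPM) overlapped, and the 24 h libraries lay below both.

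**Figure D3:**
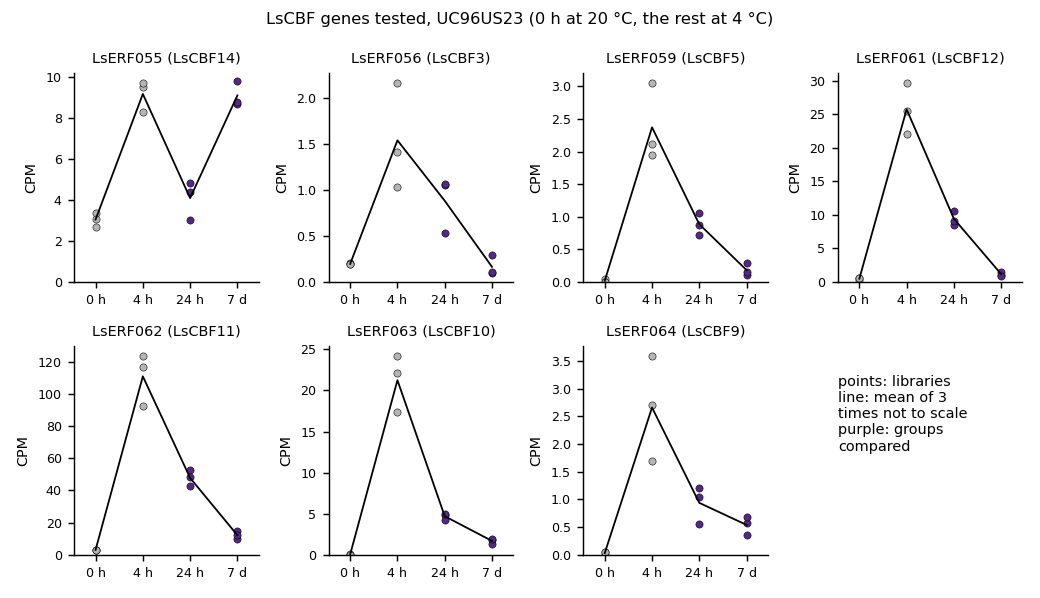
CPM of the 7 LsCBF genes tested in UC96US23 at 0 h (20 °C) and after 4 h, 24 h and 7 d at 4 °C (linear vertical axes from 0, times not to scale). Points are single libraries, lines join the means of 3, and purple points are the groups compared; the means of LsERF056 and of the 5 genes of the cluster are highest at 4 h, whereas LsERF055 is as high at 7 d (8.69 to 9.85 CPM) as at 4 h.

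The fall with the smallest adjusted p in the family was that of LsAP2.13 (linkage group 4, 332994977 to 332999585 on the plus strand, 10 exons). Its closest Arabidopsis match is APETALA2, a regulator of flower organ identity and flowering time. Other genes tested have the same match, among them LsAP2.03, LsAP2.04, LsAP2.07 and LsAP2.11. These were chosen after their values were seen and were not called (changes of -0.34, 0.47, 0.05 and 0.22). LsAP2.13 stood at 203, 210 and 193 CPM at 24 h and at 50.2, 58.9 and 57.9 CPM at 7 d, so the groups were well apart. It fell by 1.85 (SE 0.07, limma adjusted p = 1.26e-08), a mean at 24 h of 3.63 times that at 7 d. At 0 h it had a mean of 21.8 CPM and at 4 h 31.6 CPM, so that, unlike the LsCBF cluster, its highest mean was at 24 h. The other tested AP2 subfamily genes that the study names were not called. LsAP2.05, whose match is the seed oil regulator WRINKLED1, had a change of 0.13 (limma adjusted p = 0.649) that turned negative under edgeR, DESeq2 and without replicate 2 of 24 h (-0.0354). LsAP2.14 had a change of 0.38 (limma adjusted p = 0.0803).

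LsERF105 of group VI (linkage group 9, 18472317 to 18474830, plus strand, 3 exons) matches CRF4, a cytokinin response factor of Arabidopsis. It went from 30.6, 25.4 and 26.5 CPM at 24 h to 8.59, 10.1 and 8.03 CPM at 7 d, without overlap, and fell by 1.58 (SE 0.12, limma adjusted p = 1.23e-06). LsERF012 of group II (linkage group 2, 161778051 to 161778521, plus strand) matches DEAR3, a DREB protein with a repressor motif. It went from 21.6, 19.5 and 20.9 CPM to 7.63, 11.6 and 7.74 CPM and fell by 1.18 (SE 0.15, limma adjusted p = 6.33e-05). At 7 d the means of these genes were 8.91 and 8.98 CPM, against 10.5 and 6.69 CPM in the warm at 0 h. LsERF106 of group VII, which matches RAP2.12, an activator of low-oxygen genes in Arabidopsis, is outside the rule for named genes and was chosen after its values were seen. It stood at 356, 315 and 298 CPM at 24 h and 143, 169 and 148 CPM at 7 d and fell by 1.07 (SE 0.08, limma adjusted p = 1.7e-06). The calls of these 3 genes and of LsAP2.13 held under all 15 alternatives.

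In group IX, whose Arabidopsis members act in ethylene, wounding and pathogen responses, 3 genes fell and 1 rose. LsERF173 (linkage group 9, 57705701 to 57706492, plus strand) matches AtERF105, a cold-induced gene needed for full freezing tolerance in Arabidopsis. It stood at 38.1, 28.0 and 31.6 CPM at 24 h and 15.4, 14.9 and 14.2 CPM at 7 d and fell by 1.09 (SE 0.11, limma adjusted p = 1.38e-05). Without replicate 1 of 24 h its change was -0.98, just short of the limit. LsERF161, a match to the stress response regulator AtERF6, went from 2.65, 1.88 and 2.51 CPM to 1.16, 0.524 and 0.609 CPM and fell by 1.19 (SE 0.23, limma adjusted p = 0.00148). Its call was lost with a pseudocount of 2 (-0.66), without the filter (adjusted p = 0.0129) and with the filter over all 23 libraries (0.0114). LsERF166, a match to AtERF13, went from 3.93, 2.17 and 3.29 CPM to 2.08, 0.576 and 0.609 CPM and fell by 1.29 (SE 0.32, limma adjusted p = 0.00675). The fall of LsERF166 was the least certain of the 3. Its call was lost with edgeR (adjusted p = 0.0117), without replicate 1 or 3 of 24 h (0.0297 and 0.0276) and without replicate 2 or 3 of 7 d (0.0312 and 0.0344), and its change was -1.70 without replicate 1 of 7 d. The call was also lost with a pseudocount of 2 (-0.75), without the filter (adjusted p = 0.0598) and with the filter over all 23 libraries (0.0542).

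LsERF184 of group X (linkage group 9, 45526844 to 45528203, minus strand, 3 exons) had the second-largest change, but its libraries disagreed. It stood at 8.97, 6.50 and 5.19 CPM at 24 h and at 4.15, 0.471 and 0.358 CPM at 7 d, so that replicate 1 of 7 d was close to the 24 h group. It fell by 2.20 (SE 0.50, limma adjusted p = 0.00383). The call was lost with edgeR (adjusted p = 0.0181), with DESeq2 (0.0971), without replicate 1 or 2 of 24 h (0.0173 and 0.0115) and without replicate 2 or 3 of 7 d (0.019 and 0.0207). The same held without the filter (0.0621) and with the filter over all 23 libraries (0.056). Without replicate 1 of 7 d the change was -2.98 (adjusted p = 9.47e-08).

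LsERF085 of group V (linkage group 5, 256814755 to 256815444, minus strand, 2 exons) had the largest rise of the family. Its match is SHINE1, also called WIN1, which promotes the formation of wax and cutin in the Arabidopsis cuticle. It stood at 0.549, 0.674 and 1.00 CPM at 24 h and at 4.63, 4.03 and 4.84 CPM at 7 d, a mean 6.07 times higher. The groups were clearly apart, and it rose by 2.02 (SE 0.20, limma adjusted p = 1.08e-05). Its libraries at 0 h (0.528 to 1.05 CPM) and at 4 h (0.703 to 1.85 CPM) were also all below those at 7 d. LsERF080 and LsERF084 also match SHINE1 and were chosen after their values were seen. Their changes of 0.98 and 0.85 had limma adjusted p = 0.00044 and 0.00679 and were under the limit of 1.

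LsERF171 of group IX (linkage group 8, 13990074 to 13991147, plus strand, 1 exon) matches AtERF5, a regulator of defence and osmotic stress responses in Arabidopsis. It went from 8.97, 7.89 and 8.64 CPM at 24 h to 20.3, 26.1 and 22.1 CPM at 7 d and rose by 1.37 (SE 0.12, limma adjusted p = 3.92e-06). Its mean had been 40.9 CPM at 0 h and 19.7 CPM at 4 h, so the level at 7 d was between those at 24 h and in the warm. LsSoloist.2 (linkage group 8, 128679186 to 128682074, minus strand, 9 exons), whose Arabidopsis match acts in defence against bacteria, went from 1.56, 0.626 and 0.781 CPM to 2.65, 3.56 and 2.90 CPM and rose by 1.29 (SE 0.24, limma adjusted p = 0.0011). It too had been higher in the warm, at 6.02 to 9.80 CPM. Its call was lost with a pseudocount of 2 (change of 0.76), without the filter (adjusted p = 0.0152) and with the filter over all 23 libraries (0.0134). The calls of LsERF085 and LsERF171 held under all 15 alternatives.

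LsERF013 of group II (linkage group 3, 132896299 to 132896847, plus strand) matches the same Arabidopsis gene as LsERF012, DEAR3. It stood at 3.89, 3.66 and 4.63 CPM at 24 h and at 9.80, 7.91 and 8.21 CPM at 7 d and rose by 1.00 (SE 0.15, limma adjusted p = 0.000223). This was the smallest called change of the family, and it dropped under 1 in 7 alternatives, among them centring (0.89) and leaving out replicate 1 or 2 of 24 h (0.98 and 0.94) or replicate 1 of 7 d (0.91). Just outside the limit were LsERF115 of group VII (0.987, limma adjusted p = 0.000251) and LsRAV.3 (-0.996, limma adjusted p = 9.1e-06), chosen after their values were seen. In all, 22 family genes passed the limit on adjusted p without reaching that on size, 11 higher and 11 lower.

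**Figure D4:**
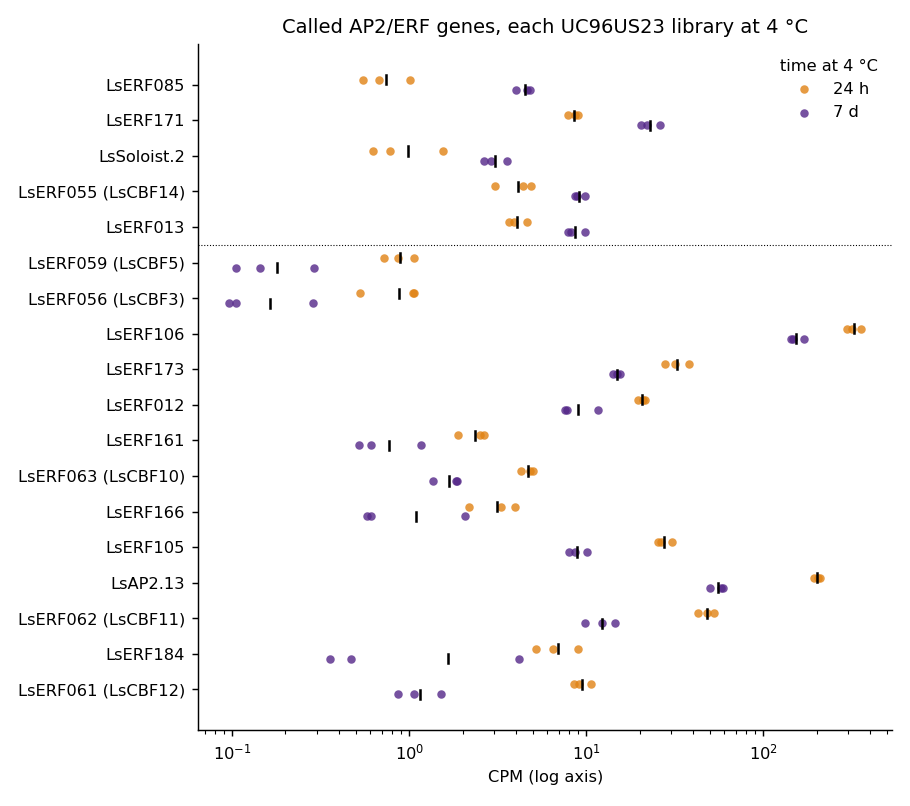
CPM (log axis) of the 18 called AP2/ERF genes in each UC96US23 library after 24 h (orange) and 7 d (purple) at 4 °C, ordered by change, with the genes that rose above the dotted line. Short vertical bars are means of 3 libraries. The times do not overlap in any of the 18 genes, as in 470 of the 471 rises and 702 of the 705 falls over all genes. Replicate 1 of 7 d (4.15 CPM) stands apart in LsERF184.

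Further genes that the study names for their response to several stresses were not called between 24 h and 7 d. LsERF004 and LsERF009 of group I had changes of -0.45 and -0.55 (limma adjusted p = 0.0303 and 0.0158), LsERF073 of group IV one of -0.54 (0.0446) and LsERF116 of group VIII one of -0.70 (0.0465). LsERF009, for example, stood at 9.61, 8.28 and 9.59 CPM at 24 h and at 7.43, 4.71 and 6.38 CPM at 7 d. Its groups did not overlap, and the 95% confidence interval of its change was -0.91 to -0.19. The interval for LsERF116, which passed the filter only through 24 h, was -1.28 to -0.12 and included falls past the limit. On recovered reads the change of LsERF116 was -2.04 with edgeR (adjusted p = 0.0373) and -2.10 with DESeq2 (adjusted p = 0.0464), neither of them a call. LsAP2.21 was not analysed here.

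Duplicated genes were compared as the study pairs them. Of its 39 tandem pairs, 14 had both genes tested, and the changes of both genes had the same sign in all 14, called or not. Most of the 14 join genes of a single cluster, LsERF059 and LsERF061 to LsERF064. Both genes were called in 6 of the 14, which join LsERF059, LsERF061, LsERF062 and LsERF063, all falls. LsERF059, which is in 3 of the 6, passed the filter only through 24 h, so a call for it could only be a fall. Of the study's 29 segmental pairs, 10 had both genes tested, with the same sign in 2 and opposite signs in 8. The pairs of opposite sign include LsERF055 with each of LsERF061 to LsERF064, and LsAP2.06 with LsAP2.09 (0.02 and -0.04). Signs of changes as small as the latter depend on the scaling, since centring lowered the median change of all genes by 0.11. Both genes were called in 4 of the 10 segmental pairs, each with a rise and a fall. The share of like signs among unrelated genes was not computed. Of the 4, 3 join LsERF055 (1.09) to LsERF061, LsERF062 and LsERF063 (-2.60, -1.94 and -1.26), and 1 joins LsERF012 (-1.18) to LsERF013 (1.00). Pairs of both kinds share genes and are not independent. The gap within a pair was largest for LsERF055 and LsERF061, at 3.69 on the log2 scale. Tandem copies can share reads, and the part of this in their like signs was not tested.

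The same interval was sampled in PI284702, with 3 libraries at each time and the same cold treatment, growth and age by the labels. Over 22728 genes fitted with 12 libraries, 442 rose (1.94%) and 736 fell (3.24%) in PI284702. The libraries of the cultivars are separate, so their changes can be set against each other. Of the 471 genes that rose in UC96US23, 445 (94.5%) had a change above 0 in PI284702, against 62.0% of all genes, and 169 were called there, 35.9% of the UC96US23 rises and 42.0% of the PI284702 rises among the same genes. Of the 705 that fell, 676 (95.9%) were below 0 in PI284702, against 38.0% of all genes, and 422 were called, 59.9% and 59.4%. Across the 21450 genes the changes correlated at r = 0.777, given as a description since genes are not independent.

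In the AP2/ERF family, all 5 genes that rose and all 13 that fell in UC96US23 had the same direction in PI284702. Over all genes this held for 94.5% of the rises and 95.9% of the falls. In PI284702, 4 of the 5 (80.0%) and 7 of the 13 (53.8%) were called, against 35.9% and 59.9% over all genes. LsERF061 (-3.06), LsERF105 (-1.56), LsERF063 (-1.51), LsERF062 (-1.49), LsAP2.13 (-1.40), LsERF106 (-1.10) and LsERF085 (1.56) were among those called. LsERF166 (-0.56), LsERF161 (-0.70), LsERF173 (-0.72), LsERF012 (-0.77), LsERF056 (-1.14), LsERF184 (-1.45) and LsSoloist.2 (0.80) were not. A call in one cultivar alone does not show a difference, which was tested directly as the change in UC96US23 minus that in PI284702. By this test 0 of 126 AP2/ERF genes were called by limma, edgeR or DESeq2, and 12 (9.52%) had an unadjusted p under 0.05 by limma, against 14.2% of all genes. The smallest adjusted p was that of LsERF003 of group I, which was chosen after its values were seen (change of -0.01 in UC96US23 and -0.88 in PI284702, difference 0.87, 95% confidence interval 0.40 to 1.33, limma adjusted p = 0.0637). For LsAP2.13 the difference was -0.45 (interval -0.73 to -0.18, limma adjusted p = 0.112), which was not called, and for LsERF061 it was 0.46 (-0.32 to 1.25).

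**Figure D5:**
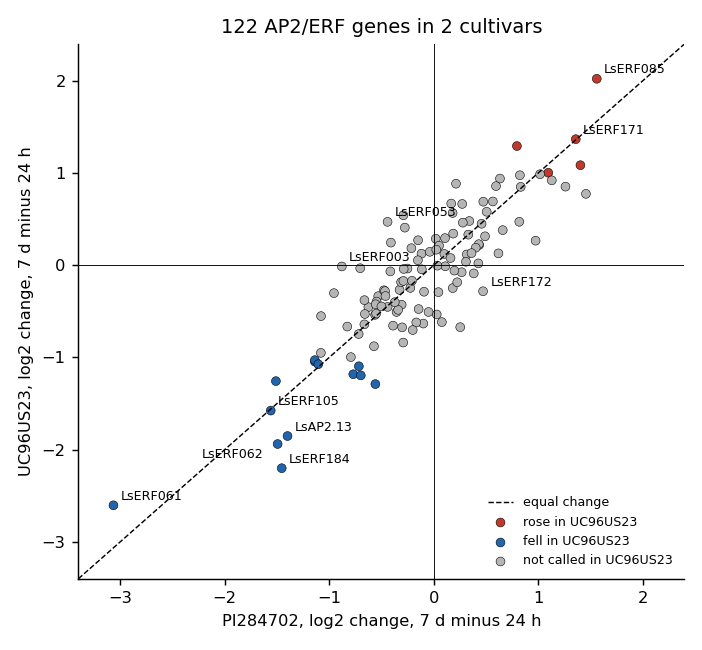
Change between 24 h and 7 d at 4 °C in UC96US23 (vertical axis) against that in PI284702 (horizontal axis), both in log2 of CPM + 0.5, for the 122 AP2/ERF genes tested. The dashed line marks equal change. All 18 genes called in UC96US23 have the same sign in both cultivars, from LsERF061 (-2.60 and -3.06) to LsERF085 (2.02 and 1.56). Over all genes, 94.5% of the rises and 95.9% of the falls do.

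Over all genes, the change differed between the cultivars in 45 of 22728 genes (0.198%), higher in UC96US23 in 19 (0.0836%) and lower in 26 (0.114%). These genes have no name in the sources used here. The 19 had differences of 1.06 to 3.02 (median 1.32). In PI284702, 10 of them fell, while in UC96US23, where 17 of the 19 were tested, 1 fell and 4 rose. The 26 had differences of -4.22 to -1.23 (median -1.75), and of the 24 tested in UC96US23, 14 fell and 1 rose there, while 4 fell and 9 rose in PI284702. At an unadjusted p under 0.05, 3237 genes (14.2%) differed. Leaving out single libraries changed these small counts to between 10 and 22 higher and between 12 and 38 lower.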

How the data were processed

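RNA of UC96US23 and PI284702 plants was sequenced after library preparation by Illumina protocols, per the labels. By the submitters' processing notes, reads were handled with STAR 2.5.2, featureCounts and edgeR, and the study's methods give the L. sativa genome version 8. The authors deposited CPM for 23 cold-experiment libraries, and the values of each library sum to 1000000. Divided by the value of 1 read, 100% of the values came out whole within 0.01 reads, which gave the depths. Read counts above cover counting error only, and a single read limits the precision of low genes. The Salinas table was not used.

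Genes with 0.5 CPM or more in 2 or more of the 6 libraries were fitted as log2(CPM + 0.5) with limma 3.58.1 in R 4.3.3 (eBayes with trend), two-sided, Benjamini-Hochberg adjusted. An exact permutation test of 3 against 3 libraries cannot go below p = 0.1 and was not used. PI284702 and the difference between cultivars were fitted over 12 libraries. Alternatives were pseudocounts of 0.1 and 2, no filter or a filter over all 23 libraries, all 23 libraries in the fit, centring on genes with 1 CPM or more in every library, a replicate block and leaving out each library in turn. The recovered reads were also tested with edgeR 4.0.16 and DESeq2 1.42.0. Summaries were computed in Python 3.11.15 (pandas 2.3.3, numpy 2.4.6) and plotted in matplotlib 3.10.9.

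Names, groups, positions, Arabidopsis matches and duplicate pairs are those of the study's gene lists. The rule named all LsCBF genes, the genes of the study's text on expression, up to 10 called AP2/ERF genes without overlap each way by size of change, called interaction genes, and 2 identifiers each way. The members and lists were chosen with earlier results of these data known. Lists of cold, sugar, photosynthesis and other genes, and leaf markers, were to be found by gene name and were not run, since the identifiers were not paired with names here.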

Additional observations from a re-analysis of the deposited data

Results flagged for a closer look

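The change from 24 h to 7 d in the cold differed between UC96US23 and PI284702 by limma's test of the difference (adjusted p of 0.01 or less and a difference of 1 or more on the log2 scale). It was higher in UC96US23 in 19 genes and lower in 26 of the 22728 tested.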

How the results depend on the processing

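Of the UC96US23 counts, 471 rises became 209 with a pseudocount of 2 and 274 with centred libraries, and 705 falls became 1077 with edgeR and 1102 with DESeq2. The 5 AP2/ERF rises became 9 with a pseudocount of 0.1, 2 with one of 2 and 3 with centring, edgeR or DESeq2. Over all genes the rises were 653 with a pseudocount of 0.1, 351 with edgeR and 334 with DESeq2. The 13 AP2/ERF falls became 8 with a pseudocount of 2, against 481 falls over all genes. In PI284702, 442 rises became 174 with a pseudocount of 2 and 275 with centring, and 736 falls became 480 with a pseudocount of 2, 1143 with edgeR and 1202 with DESeq2. The 19 higher and 26 lower differences between cultivars became 49 and 75 with DESeq2, and the lower ones 12 without the filter and 42 with all 23 libraries in the fit. The cause of these shifts was not tested. Leaving out single libraries gave 429 to 581 rises and 601 to 865 falls in UC96US23, 3 to 10 rises and 8 to 15 falls among its AP2/ERF genes, 422 to 534 rises and 709 to 757 falls in PI284702, and 10 to 22 higher and 12 to 38 lower differences.

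The change of LsAP2.05 (0.13) reversed to -0.0204 with edgeR, to -0.0223 with DESeq2 and to -0.0354 without replicate 2 of 24 h, and lay between -0.0354 and 0.26 as single libraries were left out. No called gene that the text names changed direction. Among the 18 called AP2/ERF genes, 8 kept their call under all 15 alternatives.

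Replicate numbers are shared by the groups, and the deviations of same-numbered 24 h and 7 d libraries correlated at 0.101, -0.00649 and 0.102 in UC96US23 and at 0.0641, 0.134 and 0.114 in PI284702. Differently numbered 24 h and 7 d libraries correlated at -0.113 to 0.0278 in UC96US23 and at -0.114 to 0.00883 in PI284702. The main fit did not take the numbers as pairs, and a shared effect of the replicate number was not tested. With the replicate number as a block, 474 genes rose and 735 fell in UC96US23, with 5 and 13 among AP2/ERF genes, 447 rose and 753 fell in PI284702, and 19 higher and 38 lower differences were called.

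Low genes limit the comparison: at 0.0358 to 0.0558 CPM per read, a gene at the filter's 0.5 CPM rests on few reads, and the choice of pseudocount moves its change.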
